A study of Mus musculus with 4 samples.

Results

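The small heat shock proteins of muscle were followed here through 7 genes: Hspb1, Hspb2, Hspb3, Hspb6, Hspb7, Hspb8 and Cryab. They were found by the gene name that the array files give to each spot that is not a control, which yielded 8 of 39429 probes and 7 of 31893 gene names. Small heat shock proteins share an alpha-crystallin domain, assemble into oligomers and hold unfolding proteins in a soluble state without using ATP, so that other chaperones can refold them or hand them to autophagy. Striated muscle is rich in them, where they are found at actin filaments, desmin filaments, titin and the Z-disc, sites under mechanical load. Some are classic targets of heat shock factor 1 (Hsf1), the transcription factor that binds heat shock elements in promoters after stress.

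The tissue was mouse 3D engineered muscle, skeletal muscle built in culture. It was taken at 0 min after a 30-min bout of acute EPS (read as electrical pulse stimulation, which makes cultured muscle contract), at 0 min without EPS, at 5 h after EPS, and at 5 h without EPS, with unstimulated tissue as the negative control at each time. Each of these 4 groups was 1 single-colour array of total RNA, all on 1 slide, and the cells and the number of tissues behind each RNA are not given in the sources used here. A difference between 2 arrays therefore has no error between tissues and no test.

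All values are levels on the log2 scale: the log2 of the spot signal minus that of the array's 75th percentile, which was 1093 (EPS, 0 min), 1362.5 (no EPS, 0 min), 1491.9 (EPS, 5 h) and 1280.3 (no EPS, 5 h). A level is read within a probe, from array to array, and not from gene to gene. Of 25 skeletal muscle markers 24 were on the array, and all 24 were well above background on every array, among them Acta1, Ckm, Des and Myog. The labelling protocol speaks of leukocytes. Of 9 leukocyte markers 5 (Cd68, Cd14, Csf1r, Itgam and Cd3e) passed the well-above-background call on all 4 arrays and 3 on none, among them the pan-leukocyte gene Ptprc and the macrophage gene Lyz2. The summed level of a marker list is the log2 of the sum of its unlogged levels, dim markers included, so the brightest probes weigh most. For the 9 leukocyte markers it was 3.12 (EPS, 0 min), 3.23 (no EPS, 0 min), 3.41 (EPS, 5 h) and 3.24 (no EPS, 5 h). Itgam was the brightest of them on every array. The part of these markers in the members' values was not tested. Of 7 lens markers 5 passed it on none of the arrays, including Cryaa, the lens partner of Cryab. Since the tissue was measured in bulk, fewer cells of a type and less RNA per cell cannot be told apart.

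The probes and promoters that carry the values below are as follows. The pair of Cryab probes is shown because they read different stretches of 1 transcript, and the Hspb3 probe because that gene moved furthest. Sequences are 5′ to 3′ from the array files, with positions on build mm9.
Cryab probe 1, chr9:50564566-50564625, plus strand: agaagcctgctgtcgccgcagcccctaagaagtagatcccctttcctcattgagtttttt
Cryab probe 2, chr9:50561458-50561517, plus strand: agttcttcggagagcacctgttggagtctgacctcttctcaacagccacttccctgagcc
Hspb3 probe, chr13:114453236-114453295, minus strand: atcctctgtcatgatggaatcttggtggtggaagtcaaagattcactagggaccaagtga
The remaining members had 1 probe each, on chromosome 5 for Hspb1 (136365366 to 136365425) and Hspb8 (116859063 to 116859122), 9 for Hspb2 (50559211 to 50559270), 7 for Hspb6 (31340398 to 31340457) and 4 for Hspb7 (140980355 to 140980414). Hspb2 and Cryab are neighbours on chromosome 9 read from opposite strands: 2187 bases separate the Hspb2 probe from Cryab probe 2, and 5295 from Cryab probe 1.

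Promoter windows of RefSeq (build GRCm38.p6, 250 bases before to 50 after each start) were given for 5 members: Hspb1, Hspb3, Hspb6, Hspb7 and Hspb8. They were searched for the heat shock element letters GAANNTTC and TTCNNGAA. Each of these reads the same on both strands, and an occurrence of one can overlap an occurrence of the other. Longer 13-letter forms, in which another GAA or TTC unit follows at the same spacing, contain both and were searched too. Hspb1 is shown because its window alone among the members' windows held GAANNTTC in 2 places, starting at bases -117 and -97 from the start. Hspb3 held 1 place, starting at base -224, and the Hsp70 gene Hspa1a, shown beside them for its response described below, held 1 starting at base -104. Capitals mark these matches, and only the bases before the start are printed.
Hspb1: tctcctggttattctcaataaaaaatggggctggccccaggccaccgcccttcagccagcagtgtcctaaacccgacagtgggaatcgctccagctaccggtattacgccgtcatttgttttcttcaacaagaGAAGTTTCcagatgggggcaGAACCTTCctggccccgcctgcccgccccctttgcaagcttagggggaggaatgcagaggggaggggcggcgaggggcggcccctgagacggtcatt
Hspb3: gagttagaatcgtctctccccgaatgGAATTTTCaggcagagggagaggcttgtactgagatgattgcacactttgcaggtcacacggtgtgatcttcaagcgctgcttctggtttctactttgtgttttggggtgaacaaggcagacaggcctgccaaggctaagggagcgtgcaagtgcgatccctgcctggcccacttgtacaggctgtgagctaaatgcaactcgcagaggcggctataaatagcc
Hspa1a: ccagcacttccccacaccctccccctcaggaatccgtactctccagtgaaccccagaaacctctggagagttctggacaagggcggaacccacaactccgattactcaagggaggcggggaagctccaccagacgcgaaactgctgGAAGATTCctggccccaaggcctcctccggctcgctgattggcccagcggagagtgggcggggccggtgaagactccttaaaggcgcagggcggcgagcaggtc
These stretches lie at chr5:135887669-135887918 on the plus strand for Hspb1, chr13:113663677-113663926 on the minus strand for Hspb3 and chr17:34972157-34972406 on the minus strand for Hspa1a. Of the members with a window 4 of 5 held an 8-letter form (Hspb6 in 1 of its windows, and Hspb8 from base 3 after the start), against 17% of the 27025 genes with windows. Counted by window it was 4 of 6, against 15.1% of all 32851 windows. None of the 5 held a 13-letter form, which 0.662% of genes and 0.603% of all windows held. Among other heat shock factor 1 targets 10 of 16 genes with windows held an 8-letter form and 4 held a 13-letter form. A match describes letters and does not show a bound site.

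All 7 members were well above background on all 4 arrays, so none was lost to a filter, and none was saturated. Their patterns fell within narrow bounds: the widest range over the 4 arrays was 0.68, for Hspb3, and the narrowest 0.17, for Cryab probe 1. The level of 5 of the 8 probes was lowest on the array of EPS at 5 h, and that of the other 3 (Hspb1, Hspb7 and Hspb8) on the array of no EPS at 0 min.

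**Figure D1:**
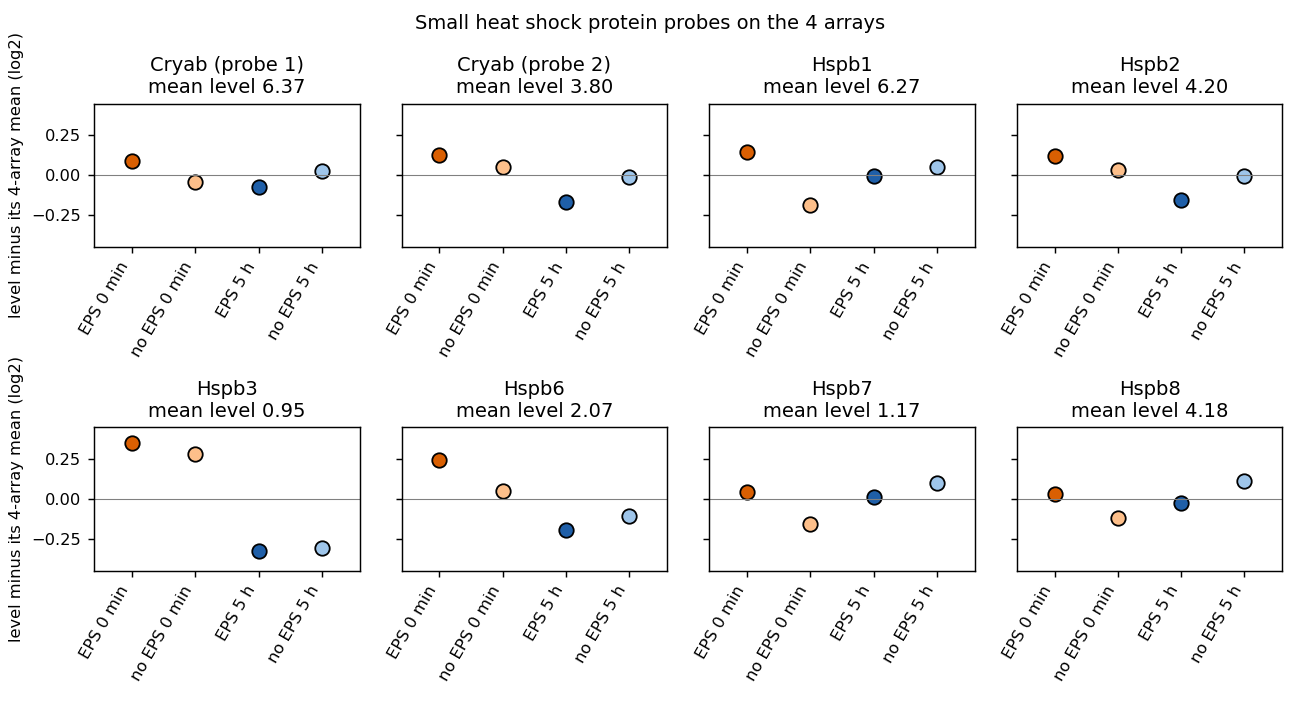
Level of each small heat shock protein probe minus its own mean over the 4 arrays (log2, vertical axis), with 1 point per array and the arrays along the horizontal axis. Hspb3 separates the 0 min arrays from the 5 h arrays, with a range of 0.68, while Cryab probe 1 spans 0.17.

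Directly after stimulation the small heat shock proteins differed by less than 1.5-fold between stimulated and unstimulated tissue. Their median absolute difference was 0.15, against 0.13 for all genes, and 5 of 7 members differed by more than that of all genes. All 7 were higher with EPS, by 0.07 to 0.33 on the log2 scale with a median of 0.15, and 0 of 7 reached the 2-fold size rule that stands in for a test, against 1.34% of the 18590 genes measured on both arrays. At 1.5-fold the count was again 0 of 7, against 5.35%. The sign held under all processing alternatives for 6 of 7, the exception being Cryab, at -0.02 under quantile normalization. The median over all genes was 0.02 and 54.5% of them were above 0. Among the 6324 genes at least as bright as the dimmest member the median was 0.07 and 71.9% were above 0, so a positive sign was the common one at these levels. The skeletal muscle markers had a median of 0.14 with 20 of 24 above 0, and their part in the members' sign was not tested.

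Hspb1 (Hsp25 in the mouse), which binds actin and is phosphorylated through the p38 pathway, differed the most at 0 min. Its signal was 93349 with EPS and 92308 without EPS, or levels of 6.42 and 6.08, which made it 1.26-fold higher once the arrays were scaled. The raw signals were nearly equal, and the difference of 0.33 comes from the lower 75th percentile of the stimulated array. It stood at percentile 93.3 among all measured genes and at percentile 96.7 among 330 genes of the same brightness (mean level within 0.5), whose median was 0.15. Of the 7 members Hspb1 alone lay outside the 5th to 95th percentile range of its brightness group, which ran from 0.01 to 0.31. By construction such a range leaves out 5% of a group at each end, so a count of 1 of 7 is near that share.

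Hspb6 (Hsp20), a target of cAMP-dependent protein kinase, had levels of 2.31 with EPS and 2.12 without EPS at 0 min, 1.15-fold higher. Hspb7, the cardiovascular member that binds filamin C, had levels of 1.21 ± 0.02 with EPS and 1.02 ± 0.03 without EPS (SD over 10 spots), also 1.15-fold higher. Its probe was printed 10 times on every array, and the spots of those arrays did not overlap: they ran from 1.18 to 1.24 with EPS and from 0.96 to 1.04 without. These are spots of 1 labelled RNA each and not separate tissues.

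**Figure D2:**
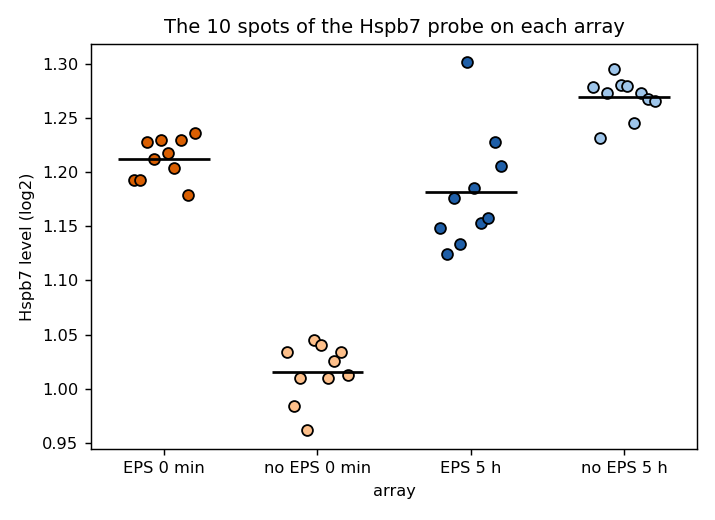
Level (log2, vertical axis) of each of the 10 spots of the Hspb7 probe on the 4 arrays, with lines at the array means. At 0 min the spots with EPS (1.18 to 1.24) lie above those without (0.96 to 1.04), and at 5 h the spots with EPS (1.12 to 1.30) overlap those without (1.23 to 1.30).

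Hspb8 (Hsp22), which works with the co-chaperone Bag3 to send damaged filamin to autophagy, had levels of 4.21 with EPS and 4.06 without EPS at 0 min, 1.11-fold higher. Cryab, the alpha B-crystallin that protects desmin and titin, had 6.46 with EPS and 6.32 without EPS by probe 1, 1.10-fold higher. Its second probe read 3.92 with EPS and 3.85 without, a difference of 0.07. For Hspb8 and Cryab the genes of the same brightness had medians of 0.08 and 0.15, so the Cryab difference of 0.14 lay below its group's median.

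Hspb2 and Hspb3 form a complex with each other in muscle, and Hspb2 also binds the myotonic dystrophy kinase. Hspb2 had levels of 4.33 with EPS and 4.24 without EPS at 0 min, and Hspb3 had 1.30 with EPS and 1.24 without, differences of 0.09 and 0.07. Probes printed 10 times gave a scale for these sizes. Over the 95 of them at least as bright as the dimmest member, the 95th percentile of the SD between spots of this difference was 0.08. Of the 7 members 6 exceeded it and Hspb3 did not. Most genes exceeded it too, since the median absolute difference of all measured genes was 0.13.

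Of the other heat shock factor 1 targets, Hspa1a and Dnajb1 differed far more on the same arrays. Hspa1a, the inducible Hsp70, had levels of -0.23 with EPS and -2.59 without EPS at 0 min, 5.15-fold higher, and Dnajb1, its Hsp40 co-chaperone, had 6.01 with EPS and 4.21 without, 3.48-fold higher. Of 18 measured heat shock factor 1 targets other than the members 17 were above 0 and 2 were at least 2-fold higher, with a median of 0.25. Above 0 were also 54.5% of all genes and 71.9% of those at least as bright as the dimmest member. Past 2-fold in either direction were 1.34% of all genes. Hsp90aa1, the inducible Hsp90, stood at 0.50 and Bag3, the partner of Hspb8, at 0.47. Hspa1a and Hspa1b are near-identical, so the Hspa1a values are uncertain as to which copy they read. No member reached the difference of Bag3, while Hspa4l (-0.01), Hsp90ab1 (0.06), Chordc1 (0.07) and Cacybp (0.08) lay below the members' median. Whether the small members answer the same signal was not tested.

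**Figure D3:**
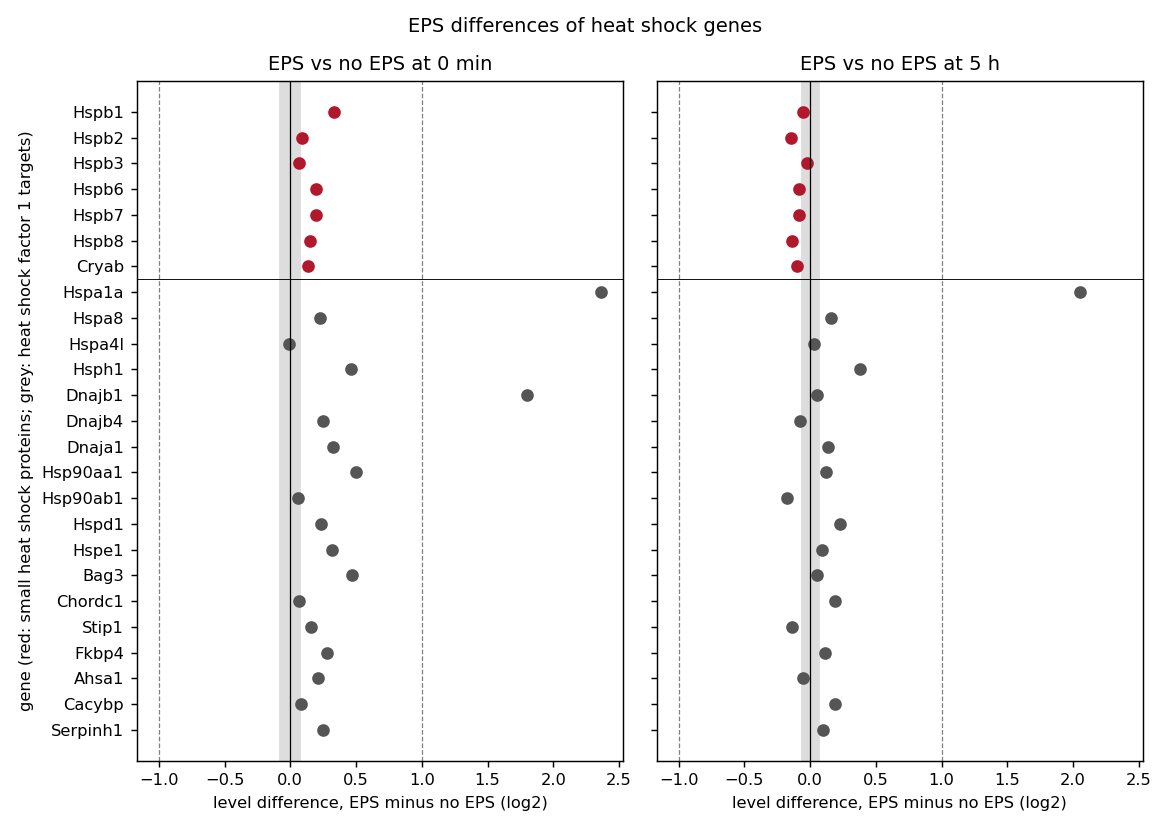
Level difference of EPS minus no EPS (log2, horizontal axis) at 0 min (left) and 5 h (right) for the 7 small heat shock proteins in red and 18 other heat shock factor 1 targets in grey. Dashed lines mark 2-fold and the grey band the 95th percentile of the spot SD for bright probes. The members lie between 0.07 and 0.33 at 0 min and between -0.15 and -0.02 at 5 h, while Hspa1a lies at 2.36 and 2.05.

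At 5 h all 7 members were slightly lower with EPS than in unstimulated tissue, by 0.02 to 0.15 with a median of -0.09. The sign held under all processing alternatives for 4 of 7: under median scaling the members' median was -0.0019 with Hspb1 at 0.03 and Hspb3 at 0.07, and under quantile normalization Hspb1 stood at 0.08 and Cryab at 0.05. None of the 7 reached 2-fold, against 1.21% of 18543 genes, and none 1.5-fold, against 5.02%. The median of all genes was -0.03, and 43.4% of them were above 0. The median absolute difference was 0.09 for the members and 0.14 for all genes, and 1 of 7 members, Hspb2, differed by more than that of all genes.

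Hspb2 had levels of 4.05 with EPS and 4.20 without EPS at 5 h, 1.11-fold lower, and Hspb8 had 4.15 with EPS and 4.29 without, 1.10-fold lower. Cryab had 6.29 with EPS and 6.39 without by probe 1, and 3.63 with EPS and 3.79 without by probe 2. Both probes of Cryab thus read lower with EPS at 5 h, by 0.10 and 0.16. Hspb6 had levels of 1.87 with EPS and 1.96 without EPS, and Hspb7 had 1.18 ± 0.05 with EPS and 1.27 ± 0.02 without (SD over 10 spots). The spots of Hspb7 overlapped at this time (1.12 to 1.30 with EPS, 1.23 to 1.30 without). Hspb1 had 6.27 with EPS and 6.32 without, and Hspb3 0.63 with EPS and 0.65 without. These last pairs differed by less than the 95th percentile of the spot SD, 0.06, whereas the other 5 exceeded it. That limit was also exceeded by most genes, whose median absolute difference was 0.14. No member lay outside the 5th to 95th percentile range of the genes of its own brightness.

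Hspa1a was still 4.14-fold higher with EPS at 5 h, at levels of -0.76 with EPS and -2.81 without EPS. Of 18 heat shock factor 1 targets 14 were above 0 with a median of 0.11, against 43.4% of all genes above 0. Dnajb1, at 4.33 with EPS and 4.28 without, differed by 0.05. The nucleotide exchange factor Hsph1 differed by 0.38, the mitochondrial chaperonin Hspd1 by 0.23 and Cacybp, a calcyclin-binding protein, by 0.19. Of these 18 genes 1 was past 2-fold at this time.

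The brightness of a probe moved with its EPS difference. Genes within 0.5 of the mean level of Hspb1 had a median of 0.15 at 0 min and -0.15 at 5 h, while those around Hspb7 had 0.03 and 0.01. Taken against genes of their own brightness, the members' median was 0.07 at 0 min, with 6 of 7 above, and -0.09 at 5 h, with 2 of 7 above (Hspb1 and Cryab, the brightest). Relative to that group Cryab stood at -0.02 at 0 min and 0.05 at 5 h by probe 1, and at -0.002 at 0 min and -0.13 at 5 h by probe 2.

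**Figure D4:**
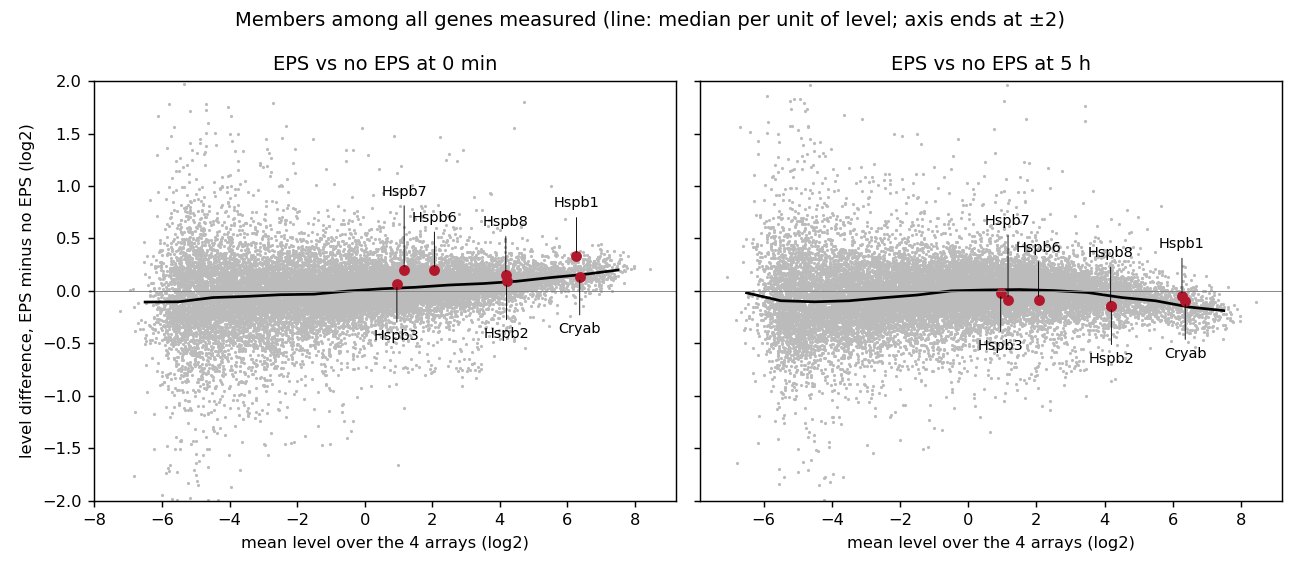
Level difference of EPS minus no EPS (log2, vertical axis) against the mean level over the 4 arrays (log2, horizontal axis) for all genes measured at 0 min (left) and 5 h (right), with the members in red and the median per unit of level as a line. The vertical axis ends at 2 in each direction, beyond which lie 23 genes at 0 min and 28 at 5 h. The members lie near the line in both panels, with Hspb1 furthest above it at 0 min.

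Subtracting the EPS difference at 0 min from that at 5 h gave a value below 0 for all 7 members, from -0.39 for Hspb1 to -0.09 for Hspb3, with a median of -0.28. None of them reached 2-fold, against 1.99% of 18109 genes measured on all 4 arrays, and none 1.5-fold, against 7.37%. The median absolute value was 0.28 for the members and 0.16 for all genes, and 6 of 7 members exceeded that of all genes. Among all genes the median was -0.05 and 41.9% were above 0, and among those at least as bright as the dimmest member -0.09 and 30.4%. Hspb8 stood at -0.29 and Hspb6 and Hspb7 each at -0.28. Those were at percentiles 15.9, 16.6 and 16.6 of all genes and 12.7, 9.5 and 9.2 of their brightness groups. Both Cryab probes gave -0.23, but against genes of their own brightness they fell on opposite sides, at 0.06 (percentile 69.1) for probe 1 and -0.13 (percentile 18.7) for probe 2.

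The largest differences of any member lay between the 5 h and 0 min arrays, and they were those of Hspb3. The median absolute difference of the members was 0.24 without EPS and 0.17 after EPS, against 0.23 and 0.30 for all genes. Without EPS, Hspb3 had levels of 0.65 at 5 h and 1.24 at 0 min, 1.51-fold lower. After EPS it had 0.63 at 5 h and 1.30 at 0 min, 1.60-fold lower. Both 5 h arrays lay below both 0 min arrays, and the arrays of one time differed by 0.02 at 5 h and 0.07 at 0 min. It was 1 of 7 members past 1.5-fold in each comparison, against 16.0% of 18488 genes without EPS and 20.4% of 18469 after EPS. None reached 2-fold, against 4.70% and 6.04%. When each array was scaled by its median instead, Hspb3 differed by -0.46 without EPS and -0.50 after EPS, under 1.5-fold in both. It was at percentile 9.2 of all measured genes without EPS and 9.3 after EPS.

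Hspb6 and Hspb2 also read lower at 5 h on both sides, but without EPS the sign of Hspb2 did not hold. Under median scaling the Hspb2 difference without EPS was 0.09 and that of Hspb6 was -0.02. Hspb6 had levels of 1.96 at 5 h and 2.12 at 0 min without EPS, and 1.87 at 5 h and 2.31 at 0 min after EPS. Its differences were -0.16 and -0.44, and those of Hspb2 were -0.04, within the spot SD limit of 0.07, and -0.28. Hspb1, Hspb7 and Hspb8 were higher at 5 h without EPS, by 0.24, 0.25 and 0.24, and after EPS they differed by -0.15, -0.03 and -0.06. The time comparisons share their arrays with the EPS comparisons. The Cryab probes had opposite signs without EPS, 0.07 for probe 1 and -0.06 for probe 2, and read -0.17 and -0.29 after EPS. In both time comparisons probe 1 exceeded probe 2 by 0.13, more than the 95th percentiles of the spot SD, 0.07 without EPS and 0.05 after EPS.

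Genes for the filament, Z-disc and titin proteins that the members bind were lower at 5 h more often than not. Without EPS 5 of 16 were above 0 with a median of -0.24, and after EPS 3 of 16 with a median of -0.38, against all-gene medians of -0.02 and -0.08. Many of these genes are bright, and genes of the brightness of Hspb1 had medians of 0.09 without EPS and -0.23 after EPS. The list was not set against genes of its own brightness. Myot, the Z-disc protein myotilin, differed by -0.93 without EPS and by -1.29 after EPS, and the value after EPS was the only one of the 16 past 2-fold. Ldb3, another Z-disc gene, stood at -0.94 and -0.86. The skeletal muscle markers as a list had medians of -0.20 and -0.38 over 24 genes, and their summed level was 10.25 (EPS, 5 h), 10.37 (no EPS, 5 h), 10.67 (EPS, 0 min) and 10.48 (no EPS, 0 min). Fibroblast markers, 10 of 11 well above background on all arrays, had summed levels of 7.99 (EPS, 5 h), 8.21 (no EPS, 5 h), 8.47 (EPS, 0 min) and 8.34 (no EPS, 0 min). The part of these markers in the Hspb3 and Hspb6 differences was not tested.

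**Figure D5:**
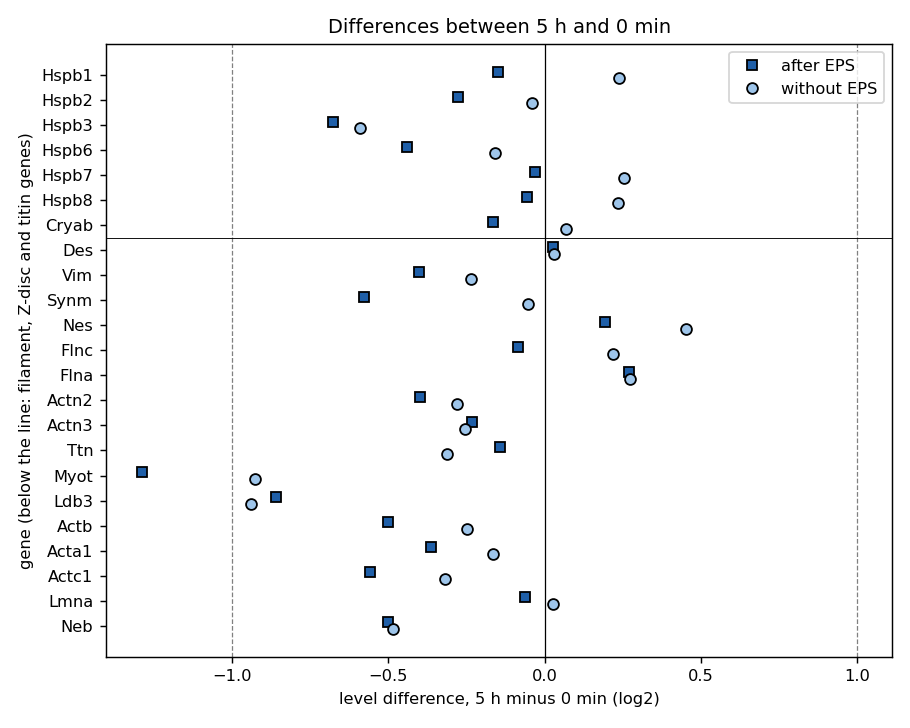
Level difference of 5 h minus 0 min (log2, horizontal axis) after EPS (squares) and without EPS (circles) for the 7 members above the line and 16 filament, Z-disc and titin genes below it; dashed lines mark 2-fold. Hspb3 lies at -0.68 after EPS and -0.59 without EPS, and Myot at -1.29 and -0.93.

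The partners and regulators of the members moved in their own ways. Hsf1 itself had levels of 1.45 with EPS and 1.53 without EPS at 0 min, and 1.58 with EPS and 1.53 without EPS at 5 h. Of the 4 heat shock factor genes with their regulator Hsbp1, 0 reached 1.5-fold in any comparison, and Hsf4, the lens factor, stood at -0.42 at 0 min and -0.28 at 5 h. Among 12 partners in chaperone-assisted selective autophagy, the route that clears damaged filamin, Bag3 was lowest on the array of no EPS at 0 min, at 2.02, against 2.48 with EPS at 0 min, 2.58 with EPS at 5 h and 2.53 without EPS at 5 h. Hspb8 was lowest on that array too, but so were Hspb1, Hspb7 and the partners Bag1, Flnc, Sqstm1 and Vps18. The remaining partners were lowest on other arrays. The filamin gene Flnc differed by 0.27 at 0 min, the cargo receptor Sqstm1 by 0.15 at 5 h and Wipi1 by -0.28 at 5 h, and none of the 12 reached 1.5-fold with EPS at either time.

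Of 13 kinase genes upstream of small heat shock protein phosphorylation 12 were measured. Mapkapk2, whose product MK2 phosphorylates Hspb1, stood at 0.36 at 0 min, and its relative Mapkapk3 at 0.34 at 0 min and 0.81 at 5 h. Mapkapk3 was dim, with levels of -2.69 with EPS and -3.50 without EPS at 5 h. Over all measured probes printed 10 times, dim ones included, the 95th percentile of the spot SD was 0.27 at 0 min and 0.26 at 5 h. Map2k6, a kinase that activates p38, was 2.31-fold higher with EPS at 5 h, with levels of -2.28 with EPS and -3.48 without EPS. At 0 min it had -2.83 with EPS and -2.47 without EPS, a difference of -0.36. Its lowest level was thus on the unstimulated 5 h array, 2.02-fold below the unstimulated 0 min array. Under normexp background correction Map2k6 was 1.76-fold higher with EPS at 5 h and 1.62-fold lower over time without EPS, both below the size rule. Array signals report RNA, so phosphorylation of the members was not measured. Of the other family genes Cryaa was not well above background on any array and Odf1 on 1, while Hspb9, a testis gene, was dim at -3.95 to -3.57. Hspb11, which despite its name encodes a subunit of the ciliary transport complex, had levels of 1.23 (EPS, 5 h), 1.24 (no EPS, 5 h), 1.86 (EPS, 0 min) and 1.75 (no EPS, 0 min), a split by time like that of Hspb3.

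Likeness between members was graded. Cryab was read here by its brightest probe only. Over the 21 pairs, the root mean square distance between the 4 centred levels was smallest for Hspb7 and Hspb8, at 0.03. Next, at 0.06 each, came the chromosome 9 neighbours Hspb2 and Cryab, and Hspb1 with Hspb7. Hspb8 with Cryab and with Hspb1 followed at 0.07 each, and the distance was largest for Hspb3 and Hspb7, at 0.38. The dimmer Cryab probe ordered the arrays as Hspb2 did. Their ranges were 0.29 and 0.28, against 0.17 for the brightest Cryab probe. Distances for the dimmer probe were not computed, so the nearest pair and the ranks of pairs with Cryab may depend on the probe. Hspb2 and Hspb3, which form a complex, lay at 0.24. Among 18108 other genes measured on all 4 arrays, the nearest to Hspb3 were Kif16b (0.004), Apoc4 (0.01) and Rap1gap (0.01), those nearest to Hspb6 were Gm15226, Snrnp25 and Gm428, and those nearest to Hspb1 were Tpd52l1, Gm4229 and an unnamed probe. With 4 points per gene many genes come this close, and the distances describe these arrays only.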

How the data were processed

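Spot intensities were deposited for 4 arrays; per the file headers the authors extracted them with Agilent Feature Extraction 10.7.3.1, subtracting a fitted spatial surface in place of local background and applying a multiplicative detrend, with surrogate values for spots not above background. The deposited value table held the same intensities (44397 of 44397 on every array). Spots that are not controls numbered 43020 per array, and 112 to 141 of them, flagged as outliers, were not used. Log2 intensities were scaled to the 75th percentile over all such spots, spots of a probe were averaged, and a gene was read by its brightest probe. By accession 26055 probes were named from RefSeq (GRCm38.p6) and the other 13374 kept the file's name. Genes counted where well above background on every array compared.

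With 1 array per group no test was run: a 2-fold rule took its place, set beside the SD of the difference over spots of the 399 probes printed 10 times. The named genes are the 7 members, up to 4 of each of 6 lists with the largest EPS differences (2 for time), the 3 nearest profiles of the 3 members with the widest range, and cell type markers; genes shown as a full list or as family or partner context were added after their values were seen. Members and lists were chosen with earlier results of these data known. Alternatives used limma 3.58.1 in R 4.3.3 (normexp with offset 50, quantile), and the steps in Python 3.11.15 were tested on simulated data. The number of arrays limits the precision.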

Additional observations from a re-analysis of the deposited data

Results flagged for a closer look

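The EPS difference had opposite signs at 0 min and at 5 h, both beyond the 95th percentile of the spot SD, for 5 members. Most genes pass these limits, 0.0762 and 0.0645, since the median absolute difference of all genes was 0.13 at 0 min and 0.14 at 5 h. Genes of the brightness of Cryab probe 1 had medians of 0.15 and -0.15. The share of all genes past both limits with opposite signs was not computed, so the count of 5 cannot be read as particular to the members. The value at 5 h less that at 0 min was -0.24 for Hspb2, -0.28 for Hspb6, -0.28 for Hspb7, -0.29 for Hspb8 and -0.23 for Cryab. It was not tested, because each group is 1 array. Against genes of the same brightness these values became -0.11 for Hspb2, -0.24 for Hspb6, -0.27 for Hspb7, -0.17 for Hspb8 and, for Cryab, 0.06 by probe 1 and -0.13 by probe 2. The Cryab result rests on probe 1, since probe 2 differed by 0.07 at 0 min, within the limit of 0.08. Under median scaling none of the 5 passed the limit of 0.0645 at 5 h: Hspb2 differed by -0.0613, Hspb6 by -0.0009, Hspb7 by -0.0019, Hspb8 by -0.05 and Cryab by -0.01.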

How the results depend on the processing

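Under all 11 alternatives 0 members reached 2-fold, and 1 (Hspb3) reached 1.5-fold under the 1.5-fold rule in the time comparison without EPS and 1 in that after EPS. Of 35 member differences 24 kept their sign throughout: 6 of 7 for EPS at 0 min, 4 of 7 for EPS at 5 h, 5 of 7 and 3 of 7 for time without and after EPS, and 6 of 7 for the difference of EPS effects. The others changed sign under quantile normalization, median scaling or comparison with genes of the same brightness; the cause was not tested. Hspb1 at 0 min ranged from 0.17 to 0.37, and Hspb3 from -0.63 to -0.46 without EPS and from -0.74 to -0.50 after EPS, and under median scaling it was under 1.5-fold in both. The members' median with EPS at 0 min was 0.0724 against genes of the same brightness, and at 5 h -0.0019 under median scaling. Without EPS the 5 h median was 0.07, but -0.0053 under quantile normalization, 0.20 under median scaling and -0.0282 against genes of the same brightness. After EPS it was -0.17, but -0.0409, 0.0162 and -0.0342 under these, -0.23 with the mean of probes and -0.23 when scaled by the 10-spot probes. For the difference of EPS effects it was -0.28, but -0.16 under quantile normalization and -0.11 against genes of the same brightness. Scaling by the 10-spot probes and the comparison by brightness were chosen after seeing the data. Median scaling moved the median of all genes to 0.11 without EPS and 0.10 after EPS at 5 h against 0 min.

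Genes past 2-fold in the 5 comparisons (EPS at 0 min, EPS at 5 h, time without EPS, time after EPS, difference of effects) numbered 249, 225, 869, 1115 and 361. They numbered 71, 74, 411, 599 and 109 under normexp, 2246, 2530, 3111, 3937 and 3978 without a filter on dim genes, and 995, 930, 2955, 3766 and 1335 at 1.5-fold.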
